A study of Mus musculus with 4 samples.

Results

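Cadherins and protocadherins were examined in mouse embryonic stem cell lines that differ in the gene for UTX, a demethylase of trimethylated lysine 27 on histone H3 that is encoded by Kdm6a. The members were the probe sets annotated to exactly 1 gene whose symbol is Cdh followed by a number, or starts with Pcdh, with Cdh1 (E-cadherin) left out. This choice used names only and gave 100 probe sets for 55 genes, of 45101 probe sets on the array. Signals are given in arbitrary units on the authors' linear scale, and 14 member probe sets for 10 genes had a mean over the 4 arrays of at least 78, the level from which members are described one by one. The other 86 lay below it and were counted.

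The groups compared had 2 lines each. The cKO group holds cKO line 1 and cKO line 2, whose genotype label is UTX conditional knockout, and the KO group holds KO line 1 and KO line 2, labelled UTX knockout. All 4 lines had been kept in serum and LIF on irradiated fibroblast feeders, were passaged on gelatin to clear the feeders, and gave total RNA for 1 Affymetrix Mouse Genome 430 2.0 array each. The labels do not state the Cre used, the strain or sex of the lines, or whether the KO lines were made from the cKO lines, and nothing states separate cultures within a line, so the p-values below speak of the spread among 4 samples, part of which may be technical. Values of a group are given with line 1 first.

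Cadherins are calcium-dependent adhesion proteins of the cell surface. Classical cadherins, of type I and type II, bind like molecules on the neighbouring cell and join the actin cytoskeleton through catenins, and E-cadherin holds embryonic stem cell colonies together. Protocadherins have the same extracellular repeats but do not bind catenins in the classical way. The clustered genes (alpha, beta and gamma) give neurons their surface identities, and the delta protocadherins, encoded by scattered genes, act in axon guidance and tissue separation.

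At its brightest probe set Kdm6a gave 658 and 415 in cKO against 265 and 198 in KO, without overlap (log2 fold change -1.17, limma adjusted p = 0.116). Probe positions were not used here, so this does not test the labels fully. All 9 embryonic stem cell markers listed had means above 78. Of these Lin28a was called, lower in KO (log2 fold change -0.66, limma adjusted p = 0.047), and the other 8 did not pass, among them Esrrb at 0.94, Zfp42 at 0.51, Sox2 at 0.37 and Pou5f1 at -0.06, with 4 of the 9 at an unadjusted p under 0.05. The median signal of an array ran from 64.4 to 81.6 and was higher for line 1 than for line 2 in both groups. Of 19 listed markers of fibroblasts, the feeder cell type, 18 had a probe set naming only that gene, and the sum of their signals was 24071 and 16694 in cKO against 8560 and 9493 in KO. Most of each sum came from Tagln (8938 and 7092 in cKO, 2230 and 2469 in KO) and Acta2 (10141 and 6210 in cKO, 4163 and 4809 in KO). Of the 13 tested, 2 fell in KO at an adjusted p under 0.05 (Tagln and Col5a1) and 11 did not pass, and none of the 18 was listed at 0. All 13 log2 fold changes were negative with a median of -0.83, 10 had an unadjusted p under 0.05, and 11 had both KO values below both cKO values. Over the brightest probe sets of all 11026 genes in the fit, the matching shares were 1.7% called (1.28% lower and 0.417% higher), 13.6% and 21.2%, with a median of 0.01. Among the 13 markers, Col3a1, Dcn and Postn had KO means of 67.4, 64.5 and 75.7, so they passed the level through their cKO values. Of the 5 markers below 78, Prrx1 went the other way (30.7 and 31.0 in cKO, 60.1 and 53.8 in KO), and the others had lower means in KO.

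Most of the family gave little signal in these cells. A mean of at least 78 was reached by 14 of the 100 member probe sets and by 48.6% of all probe sets outside the array controls. Every type I gene among the members (Cdh2, Cdh3, Cdh4 and Cdh15, with Cdh1 left out) had a probe set above this level. So did 2 of 11 type II genes (Cdh10 and Cdh11), Cdh13 among the other cadherins, and 2 of 9 delta protocadherin genes (Pcdh1 and Pcdh19). Of 23 clustered protocadherin genes only Pcdhgc4 reached it. The 28 other clustered probe sets, all of them for the 22 beta genes measured, had means from 0.784 to 34.4 and read at most 55.6 on any array. A further 6 probe sets with a protocadherin or cadherin symbol are shared by several genes and so are no members, and they read at most 47.9. Pcdh12, Pcdh15 and Pcdh20 read at most 57.9 on any array, and Cdh5 (VE-cadherin, the cadherin of endothelial junctions) at most 36.6. Signals this low are close to array background, so they do not show that a transcript was absent.

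**Figure D1:**
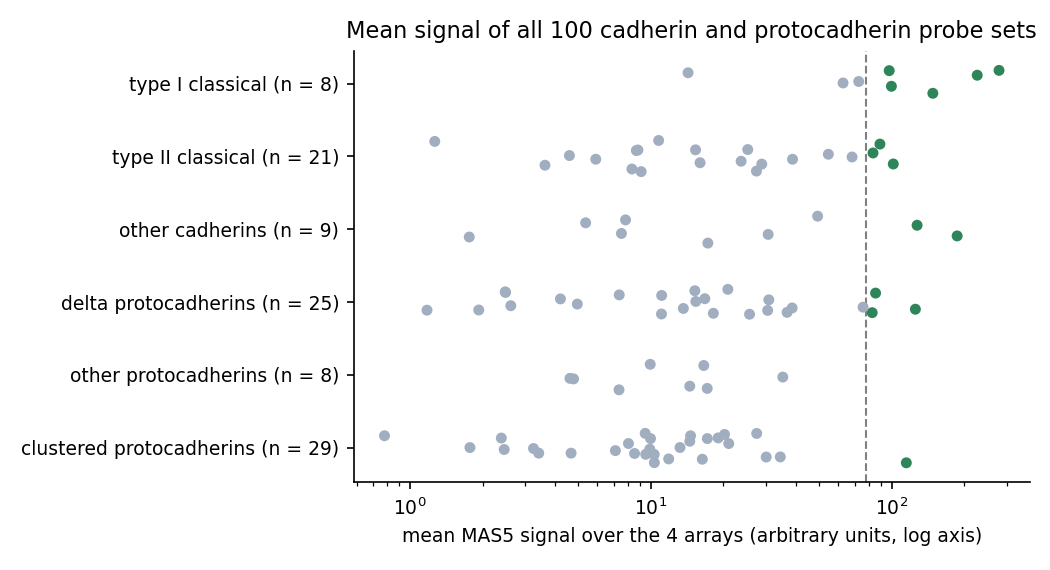
Mean signal over the 4 arrays (x axis, arbitrary units, log scale) of each of the 100 member probe sets, 1 point each, by structural class (y axis, scattered vertically for legibility). The dashed line marks 78; 14 points (green) lie at or above it, among them 5 of the 8 type I probe sets but 1 of the 29 clustered ones.

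Among the 14 probe sets with signal, Pcdh1 fell in KO cells, where its mean was 5.55-fold lower than in cKO cells, and no other member passed the test. One Cdh10 probe set was 5.13-fold lower by its means and lay just outside the threshold. Cdh13 was the gene with the highest positive values, at 1.79 and 1.57 times the cKO mean in its brighter pair of probe sets, which did not pass either. Cdh3, Cdh4 and Cdh15 had KO means between 1.01 and 1.04 times the cKO means.

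The test was limma on log2(signal + 4.79), fitted on all 21888 probe sets with a mean of at least 78, with Benjamini-Hochberg adjustment and a call at an adjusted p under 0.05. Of the 14 members 1 was called, lower in KO, beside 258 of all probe sets (1.18%; 0.891% lower and 0.288% higher), and with so few members this count reads as a single gene. Both KO values were at least 2-fold below both cKO values for 2 members, Pcdh1 and Cdh10 at 1425092_at, and 2-fold above for none, against 0.955% and 0.283% of all probe sets (1.24% in either direction). A gap of 1.5-fold, in either direction, was reached by 4 members and by 4.0% of all probe sets, the added ones being Cdh10 at 1460538_at and Cdh13 at 1434115_at. The groups did not overlap for 8 members, 5 with KO below and 3 with KO above, and for 41.0% of all probe sets (18.7% with KO below and 22.3% above). An unadjusted p under 0.05 was reached by 4 members and by 11.7% of all probe sets. Line 1 lay above line 2 in both groups for 7 members and for 41.8% of all probe sets. The median log2 fold change was -0.20 for the 14 and 0.03 for all probe sets in the fit, but 4 of the 14 (Pcdh1, both Cdh10 probe sets and 1 of Pcdh19) had KO means under 78 and so passed the level through their cKO values, and none passed it through KO values alone. The call and the 2-fold and 1.5-fold counts share this limit, since Pcdh1 and both Cdh10 probe sets are among these 4. Without the level, probe sets of Cdh23, Pcdhb14 and Pcdh9 near background were also 2-fold apart, with KO above. Over all 100 members without the level, the median was 0.03 against 0.05 for all probe sets, and none was called beside 0.26% of all (7 members had an unadjusted p under 0.05, beside 8.19% of all).

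**Figure D2:**
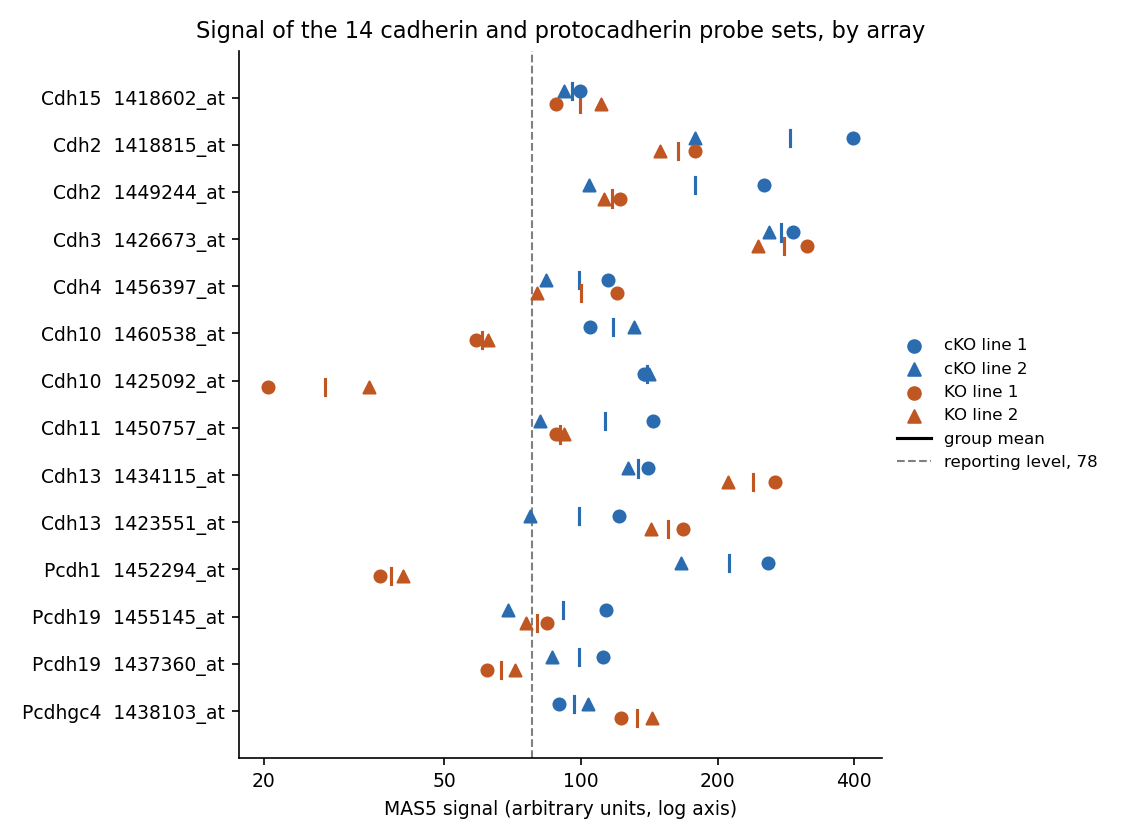
Signal on each array (x axis, arbitrary units, log scale) of the 14 member probe sets with a mean of at least 78 (y axis), blue for cKO and orange for KO, circles for line 1 and triangles for line 2, with a tick at each group mean (n = 2). Pcdh1, Cdh10 and Pcdh19 at 1437360_at have both KO values left of the dashed line at 78. Cdh2 and Cdh11 have cKO line 1 apart from the other 3 arrays, and Pcdh19 at 1455145_at is also highest in cKO line 1.

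Of the type I cadherins, Cdh2 (N-cadherin, of mesenchymal and neural cells) was high in 1 line. Its brightest probe set, 1418815_at, read 398 and 178 in cKO and 178 and 150 in KO, and another, 1449244_at, read 253 and 104 against 122 and 112. In both, cKO line 1 stood apart and the other 3 arrays lay close together. The log2 fold changes were -0.69 (SE 0.37, limma adjusted p = 0.556) and -0.46 (SE 0.41, adjusted p = 0.754), and without cKO line 1 they were -0.12 and 0.16.

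Cdh11, a type II cadherin of mesenchymal cells, had the same shape at 1450757_at. It read 144 and 81.3 in the cKO lines against 88.0 and 91.6 in the KO lines, with overlapping groups and a log2 fold change of -0.26 (SE 0.36, limma adjusted p = 0.853). Its second probe set read at most 23.1. The fibroblast markers were also highest in cKO line 1, with a median signal over the 18 of 300.1 and 187 in cKO against 142 and 119 in KO. Cdh2 at 1418815_at likewise had cKO line 2 above both KO lines, though level with KO line 1, while at 1449244_at and for Cdh11 cKO line 2 was the lowest of the 4. The part of the markers in the Cdh2 and Cdh11 values was not tested, and in such bulk RNA fewer cells of a type and less RNA per cell cannot be told apart.

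**Figure D3:**
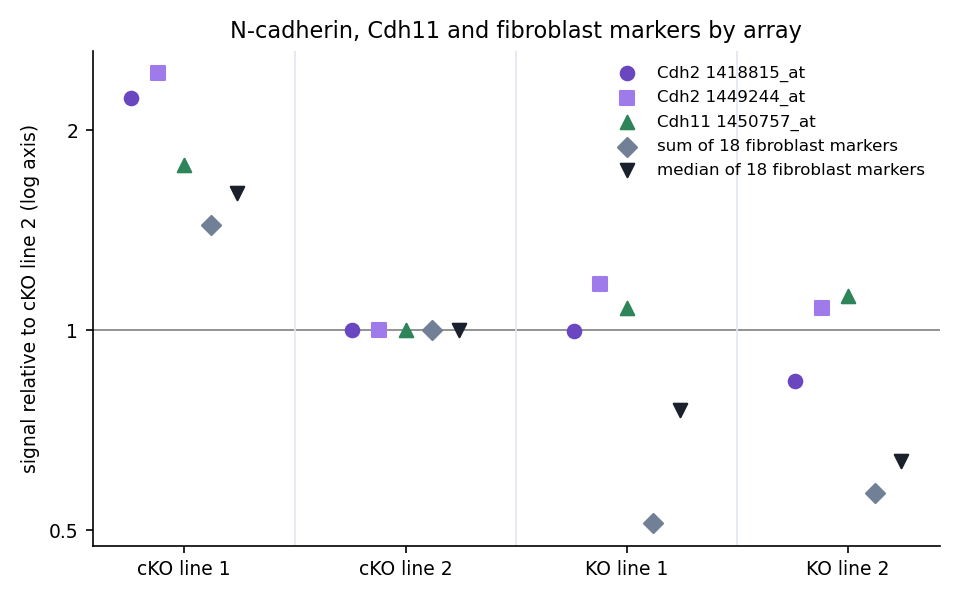
Signal on each of the 4 arrays (x axis) relative to cKO line 2 (y axis, log scale) for the Cdh2 probe sets, Cdh11, and the sum and the median of the 18 fibroblast markers. All 5 quantities are highest in cKO line 1, and in both KO lines the marker sum is the lowest of the 5 relative to cKO line 2.

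The remaining type I genes showed no separation of the groups. Cdh3, which encodes P-cadherin and is the brightest member, read 293 and 260 in cKO and 315 and 245 in KO, for a log2 fold change of 0.01 (SE 0.22, limma adjusted p = 0.993). Cdh4, which encodes R-cadherin, read 115 and 83.9 in cKO and 120 and 79.9 in KO (0.00, SE 0.35). Cdh15, which encodes the M-cadherin of muscle, read 99.4 and 91.8 in cKO and 88.0 and 111 in KO (0.05, SE 0.31). For Cdh3 and Cdh4 the gap between line 1 and line 2 was larger than that between the groups.

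Cdh10, a type II cadherin known mainly from the brain, was lower in both KO lines at both of its brighter probe sets, though by different amounts. At 1425092_at it read 138 and 141 in cKO and 20.5 and 34.0 in KO, so the cKO lines were alike and the groups far apart. The log2 fold change was -2.21 (SE 0.41, limma adjusted p = 0.0594), from 140 ± 2.46 to 27.2 ± 9.58 (mean ± SD, n = 2 each). At 1460538_at, slightly brighter on average, the values were 105 and 131 against 58.7 and 62.5, or -0.90 on the log2 scale (SE 0.33, limma adjusted p = 0.351). With the mean of both it was -1.55 (adjusted p = 0.104). The other 2 Cdh10 probe sets read at most 40.4. The steeper value missed the threshold on the deposited scale and passed it once each array was centred on its median (-2.25, adjusted p = 0.019). It also passed with the line number as a block, a fit that assumes matched lines. It missed the threshold with quantile normalization (-2.26, adjusted p = 0.072) and with the other pseudocounts. Without the level on mean signal (adjusted p = 0.136) or the trend of variance on signal (adjusted p = 0.0829) it was not called either. With 1 array left out, its log2 fold change ran from -2.52 to -1.90. The KO level at 1425092_at is near background, so the size of this difference is uncertain. The fibroblast sum was lower in KO too, and its part in the Cdh10 values was not tested.

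Of the 10 member genes with signal, 3 (Cdh10, Cdh15 and Pcdh19) have a start region in the RefSeq promoter table used here (assembly GRCm38.p6, 250 bases before to 50 after the start). Those of Cdh10 and Pcdh19 are shown because they lie at different levels of CpG content. Cdh10 was lower in KO at both of its brighter probe sets, and Pcdh19 is the X-linked delta protocadherin of similar signal. CpG is the dinucleotide CG, a C followed by a G on the same strand. Polycomb marks are known to concentrate where it is dense in embryonic stem cells. Capitals mark each CG, which reads the same on both strands.
Cdh10 (chr15:18820079-18820378, plus strand): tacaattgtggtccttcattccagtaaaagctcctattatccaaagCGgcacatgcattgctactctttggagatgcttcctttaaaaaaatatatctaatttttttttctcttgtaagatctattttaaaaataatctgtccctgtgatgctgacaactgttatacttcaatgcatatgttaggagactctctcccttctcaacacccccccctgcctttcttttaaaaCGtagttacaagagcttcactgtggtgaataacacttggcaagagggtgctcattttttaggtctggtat
Pcdh19 (chrX:133688944-133689243, minus strand): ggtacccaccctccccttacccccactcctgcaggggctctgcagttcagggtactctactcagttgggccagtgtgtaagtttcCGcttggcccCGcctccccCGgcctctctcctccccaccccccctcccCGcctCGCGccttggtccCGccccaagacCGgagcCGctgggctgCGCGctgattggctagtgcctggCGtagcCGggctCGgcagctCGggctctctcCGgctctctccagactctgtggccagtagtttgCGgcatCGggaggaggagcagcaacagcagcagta
The Cdh10 window held 2 CG and was 37.7% G or C, and 85.9% of the 32851 windows in the table held as many CG or more. The Pcdh19 window held 18 CG at 67.7% G or C, a count reached by 29.7% of windows. Cdh15 held 7, the median of the table, and 94.6% of all windows held at least 1. With 3 genes these counts are a description, and methylation and histone marks were not measured here.

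Cdh13 encodes T-cadherin, which lacks a transmembrane part, is held to the membrane by a lipid anchor and binds adiponectin. Its brightest probe set, 1434115_at, read 140 and 127 in cKO and 268 and 211 in KO. Another, 1423551_at, read 121 and 77.1 against 168 and 143. In both, the groups did not overlap, with KO above. The log2 fold changes were 0.81 (SE 0.25, limma adjusted p = 0.229) and 0.65 (SE 0.32, adjusted p = 0.502). A further probe set below the level of 78 read 17.6 and 41.8 in cKO and 66.3 and 71.0 in KO, the same order of groups, and the last read at most 2.93.

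Pcdh1, a delta protocadherin known from airway epithelium and as an entry receptor of hantaviruses, was the only member called. It has 1 probe set, 1452294_at, which read 258 and 166 in cKO and 36.0 and 40.4 in KO. Both KO lines were low and close to each other, and the lowest cKO value was far above them. The mean went from 212 ± 65.1 to 38.2 ± 3.16 (SD, n = 2 lines a group). On the log2 scale it fell by 2.30 (SE 0.35, limma adjusted p = 0.0331). The call ended without cKO line 1 (-1.99, adjusted p = 0.129), without the level on mean signal (adjusted p = 0.0802) and without the trend of variance on signal (adjusted p = 0.0809). The KO level was near background, so the fold is uncertain. The fibroblast sum was lower in KO too, and the part of those markers in the Pcdh1 values was not tested.

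Pcdh19, the X-linked delta protocadherin mutated in an epilepsy of girls, had 2 probe sets with signal. At 1455145_at it read 113 and 69.1 in cKO and 84.0 and 75.8 in KO, and the groups overlapped (log2 fold change -0.14, SE 0.37, limma adjusted p = 0.93). There cKO line 1 was the highest and cKO line 2 the lowest, as for Cdh11, and without cKO line 1 the log2 fold change was 0.20. At 1437360_at Pcdh19 read 112 and 86.2 against 62.0 and 71.4, with KO below cKO by a smaller margin than for Pcdh1 (-0.53, SE 0.35, adjusted p = 0.651). Its remaining probe set had a mean of 38.5.

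Pcdhgc4 is one of the C-type genes at the end of the gamma cluster, whose members share their last exons. At 1438103_at it read 89.6 and 104 in cKO and 122 and 144 in KO. Both KO values lay above both cKO values, with a log2 fold change of 0.44 (SE 0.29, limma adjusted p = 0.647). Since the array reads mostly 3' ends and probe positions were not used here, this signal may include other gamma transcripts.

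**Figure D4:**
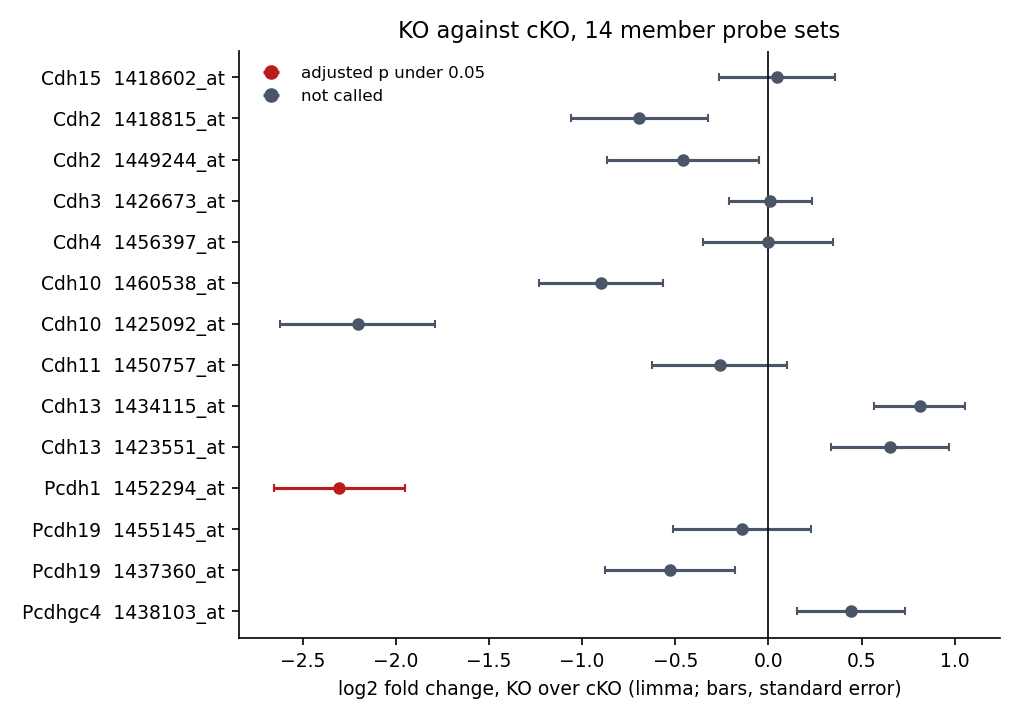
log2 fold change of KO over cKO (x axis, points) with its standard error from limma (bars) for the 14 member probe sets (y axis), red for an adjusted p under 0.05. Pcdh1 at -2.30 is the single red point; Cdh10 at 1425092_at lies at -2.21 and the Cdh13 pair at 0.81 and 0.65.

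The members nearest to the level of 78 were Pcdh19 at 1437360_at (mean 82.8) and Cdh10 at 1425092_at (83.5) just above it, and Pcdh18 at 1422889_at (75.9) and Cdh4 at 1449422_at (72.8) just below. Pcdh18, a delta protocadherin, read 179 and 73.4 in cKO and 45.6 and 5.86 in KO, so KO was lower with a wide spread within both groups. Cdh4 at that probe set read 71.2 and 85.5 against 72.7 and 62.0. Cdh22, a type II cadherin with a mean of 68.3, read 95.3 and 45.1 against 123 and 9.98, high in line 1 of both groups.

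Each gene of the lists below is represented by its brightest probe set, as for the markers above, and the shares over all genes given there apply. Of 19 genes for catenins and actin linkers, which join cadherins to the cytoskeleton, 5 had means below 78 (Ctnna2, Ctnna3, Ctnnd2, Pkp1 and Ablim1) and 14 were tested. None was called, with 9 negative values and a median of -0.11 (2 had an unadjusted p under 0.05). Ctnnb1 (beta-catenin, also the effector of Wnt signalling) read 8534 and 8869 in cKO and 9608 and 9370 in KO, and Ctnna1 (alpha-catenin) had a log2 fold change of 0.00. The smallest p values were those of Pkp2, a plakophilin of desmosomes, at -0.61 (limma adjusted p = 0.122), and of Lima1, an actin bundling protein, at 0.68 (adjusted p = 0.359).

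Of 27 other genes of the cadherin superfamily 9 were tested and none was called, with 5 negative values and a median of -0.03 (2 had an unadjusted p under 0.05). The desmosomal cadherin Dsg2 read 2209 and 2404 in cKO and 1649 and 1637 in KO (log2 fold change -0.49, limma adjusted p = 0.22). Its partner Dsc2 read 182 and 102 against 79.5 and 66.1 (-0.87, adjusted p = 0.418). In both, KO lay below cKO.

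All 13 regulators of clustered protocadherin promoters were tested, and 1 fell, Dnmt3a, a DNA methyltransferase (log2 fold change -1.89, SE 0.23, limma adjusted p = 0.0176), with a median of -0.01 and 4 at an unadjusted p under 0.05. It read 3359 and 4761 in cKO lines and 897 and 1295 in KO lines. The other 12 did not pass. Those of smallest p were Dnmt3b, another DNA methyltransferase (-0.51, limma adjusted p = 0.0988), and Stag2, a cohesin subunit (-0.66, adjusted p = 0.101), both with KO below cKO on every array. Ctcf, the boundary protein that binds these promoters, was at 0.08 (adjusted p = 0.916) and Smchd1, a repressor of the clusters, at 0.18 (adjusted p = 0.761). Beside these values, the beta cluster stayed near background in both groups.

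Of 15 genes that regulate the switch between E-cadherin and N-cadherin, 10 were tested and 1 fell, Esrp2, a splicing regulator of epithelial cells, from 388 and 450 in the cKO lines to 191 and 173 in the KO lines (log2 fold change -1.18, SE 0.21, limma adjusted p = 0.0481). The median was -0.03, with 5 values negative and 5 positive, and 2 had an unadjusted p under 0.05, Esrp2 and Klf4. Klf4 read 4890 and 2824 in cKO and 6934 and 6895 in KO, with KO above, and did not pass (log2 fold change 0.89, limma adjusted p = 0.153). The repressors of E-cadherin Snai1 (-0.08, adjusted p = 0.968) and Zeb1 (0.32, adjusted p = 0.687) did not pass, and Snai2, Zeb2, Twist1 and Twist2 lay below 78. Of 20 genes for cadherin cleavage, O-mannosylation and turnover 15 were tested and none was called or had an unadjusted p under 0.05, with a median of -0.04 and values from -0.28 to 0.20. The smallest p values here were those of Psen2, a gamma-secretase subunit (-0.27, adjusted p = 0.689), and Adam17, a sheddase (-0.21, adjusted p = 0.725).

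**Figure D5:**
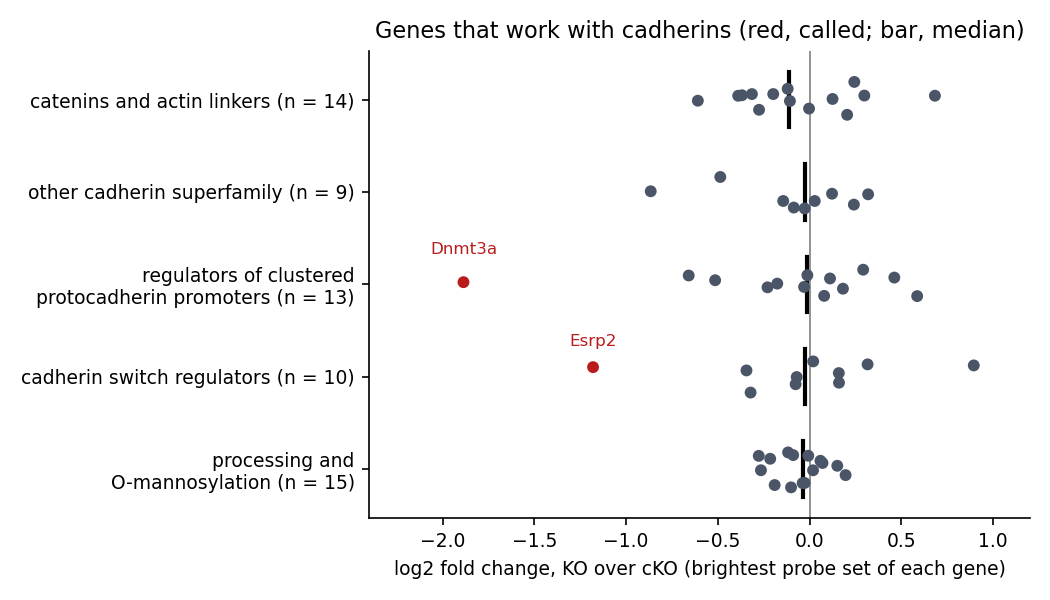
log2 fold change of KO over cKO (x axis) of the tested genes in 5 lists related to cadherins (y axis), 1 point for the brightest probe set of each gene, red where called, with a bar at the list's median. Dnmt3a at -1.89 and Esrp2 at -1.18 are the 2 red points, and the medians lie between -0.11 and -0.01.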

How the data were processed

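Total RNA of 4 embryonic stem cell lines was measured on 1 array each. The deposited values are intensity values on a linear scale, 1 per probe set, made by the authors with MAS5 per the submitters' processing notes, with version and settings not given in the sources used here. Every array had the same mean of 500.0 once 2% was trimmed from both ends, so the arrays share a scale, while signals near background stay noisy. Detection calls were not used here.

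Names came from the platform's annotation, with 34945 probe sets naming 1 gene, 932 several and 9160 none. The 100 members kept the same symbol in the RefSeq gene table. Signals were taken as log2(signal + 4.79), the 10th percentile of all values, so a fold change understates that of dim probe sets. limma 3.58.1 in R 4.3.3 (eBayes with a trend) used 2 residual and 5.63 prior degrees of freedom, and the procedure was tested on simulated data. There 30% of 2-fold and 84.5% of 4-fold changes were called, and 5.6% of the calls fell on unchanged probe sets. A gene that did not pass may therefore still differ. Sums and plots used Python 3.11.15.

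Members with a mean of at least 78 are named, with their 4 values if called, at an absolute log2 fold change of at least 1, or brightest in their class; other values shown were chosen after they were seen. In each list up to 4 called genes, or the 2 of smallest p, are named by rule, and others are examples. The members and lists were chosen with earlier results of these data known. The number of arrays limits the precision of every value.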

Additional observations from a re-analysis of the deposited data

How the results depend on the processing

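The single call, Pcdh1, held under the other pseudocounts, quantile normalization, and fits on 1-gene probe sets or on genes. The count of called members was 0 without the level on signal, 0 in the upper 40% by signal (where 4 members were tested, Pcdh1 not among them), 0 without the variance trend, 2 with centring on the median, 2 at an adjusted p under 0.1, and from 0 to 2 with 1 array left out. With the line number as a block it was 3 (Pcdh1, Cdh10 and Cdh13), and 1871 of all probe sets were called against 258; the line 1 minus line 2 differences of the groups correlated across probe sets (Pearson's r 0.48), but the labels do not pair the lines. Over all probe sets or genes the count was 1 without the trend, 117 without the level, and from 255 to 481 with 1 array left out, 481 being without cKO line 1.

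Members apart in every pair numbered 2 at 2-fold, 4 at 1.5-fold, 5 without the level (the 3 added lie near background), 0 in the upper 40%, 1 with the brightest probe set of each gene, and from 2 to 4 with 1 array left out, 4 being without cKO line 2. Quantile normalization and the mean of probe sets were not run for this count. Medians of the superfamily list (-0.03) became -0.032 with quantile normalization, -0.075 with centring, -0.057 on brightest probe sets and -0.012 on means, from -0.12 to 0.027 with 1 array left out. Those of the switch list became 0.020 in the upper 40% and -0.073 with centring (0.013 to 0.14 with 1 array left out), and of the processing list -0.086 with centring and -0.10 on means (-0.13 to -0.0080). The regulator and catenin medians ran from -0.086 to 0.11 and from -0.19 to 0.018 with 1 array left out. Each cause was not tested.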
